A study of Mus musculus with 28 samples.

Results

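The cells described are stromal cells of the mouse ovary that carried transcripts of at least 2 of the 4 genes Sct, Hhip, Smoc2 and Vegfd in single-cell RNA sequencing. A cell was counted as stromal when at least 1000 genes were detected in it, at most 20% of its UMIs (unique molecular identifiers, each counted as 1 RNA molecule) came from the mitochondrial genome, Dcn, Col1a1, Col1a2, Col3a1 and Mfap4 together made up at least 0.4% of its UMIs, Pdgfra was detected and fewer than 3 of the smooth muscle genes Myh11, Cnn1, Actg2, Lmod1 and Synpo2 were detected. Dividing cells were kept. Of 40594 barcodes in 4 libraries, 38274 passed the limits on genes and mitochondrial UMIs and 17339 were stromal, and 3038 of these carried the markers. They are called Hhip/Smoc2 stromal cells here after their rule, and the 14301 stromal cells with 0 or 1 of the markers are called the other stromal cells.

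The study asked how ovaries respond to DNA damage from ionizing radiation (IR) with and without the checkpoint kinase CHEK2. Week-old wild-type C57BL/6J females and Chek2-/- females of the Chek2tm1b(EUCOMM)Hmgu allele received a single 0.5 Gy dose (IR) or a sham treatment (non-IR), and ovaries were collected 6 h later. Single-cell RNA sequencing gave 1 library for each of the 4 combinations of genotype and treatment, each from ovaries pooled over several females and dissociated by enzymes, so that differences between these libraries have no replicate check, and condition and library cannot be told apart. Bulk RNA sequencing of whole ovaries gave 24 libraries, 6 per group, with 17824920 to 32605519 counts each, and these carry the tests. The allele is not limited to a cell type.

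Chek2, the targeted gene, stood at 19.8 to 24.6 CPM, the count scaled to a common library total, in the wild-type non-IR bulk libraries and at 2.88 to 4.44 CPM in the Chek2-/- non-IR ones, without overlap, a log2 difference of -2.58 ± 0.10 (SE, n = 6 per group, edgeR adjusted p = 7.45e-15). Both Chek2-/- bulk libraries numbered 6 stood apart from the other 22. Their Xist level, from the gene transcribed on the inactive X chromosome, was 0.423 and 0.569 CPM against 712 to 1376 CPM elsewhere, and Hhip itself was 0.154 and 0.152 CPM against 3.38 to 15.6 CPM. The Y-linked genes Eif2s3y (0.96 and 0 CPM) and Ddx3y (0.77 and 0 CPM) were near 0 in them, against at most 0.039 and 0.070 CPM elsewhere. Why both libraries stood apart was not tested. The bulk calls were also made without this pair, a choice made after seeing the data. Pairs of single-cell libraries shared 30 to 73 barcodes, but 0 of the Hhip/Smoc2 stromal cells had a barcode shared with such a cell of another library.

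The genes that define the cells belong to signalling between the follicle and its surroundings. Granulosa cells of growing follicles secrete the hedgehog ligands DHH and IHH, which act on the stroma around the follicle, where PTCH1 and GLI1 are induced as pathway targets and theca cells arise. HHIP, the hedgehog-interacting protein, binds the ligands and limits their reach, and is itself a hedgehog target. SMOC2 is a secreted calcium-binding matrix protein of the SPARC family, VEGFD is a growth factor for lymphatic and blood vessels, and SCT is the precursor of the peptide hormone secretin.

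Detection of the markers together was required by the rule that chose the cells and is not a finding. As a description, the sequences in front of the transcription starts are shown for the 3 marker genes in the RefSeq promoter table of build GRCm38.p6. These sequences are the 250 bases upstream of each start, 5′ to 3′ on the strand of the gene. They are chr7:141279134-141279383 on the minus strand for Sct, chr8:80058009-80058258 on the minus strand for Hhip and chrX:164373272-164373521 on the plus strand for Vegfd. Capitals mark the 7-base core CCACCCA of the GLI motif, read on the opposite strand, which occurred once.
Sct: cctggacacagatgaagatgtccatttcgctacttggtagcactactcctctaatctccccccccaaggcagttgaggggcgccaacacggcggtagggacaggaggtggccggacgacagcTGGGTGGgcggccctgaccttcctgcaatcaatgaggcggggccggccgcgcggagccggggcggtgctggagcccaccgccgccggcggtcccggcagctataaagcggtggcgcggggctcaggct
Hhip: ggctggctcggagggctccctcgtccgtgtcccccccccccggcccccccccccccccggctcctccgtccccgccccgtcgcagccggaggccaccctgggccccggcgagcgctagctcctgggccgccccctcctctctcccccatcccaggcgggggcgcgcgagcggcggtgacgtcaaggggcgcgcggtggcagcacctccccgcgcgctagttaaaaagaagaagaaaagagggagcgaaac
Vegfd: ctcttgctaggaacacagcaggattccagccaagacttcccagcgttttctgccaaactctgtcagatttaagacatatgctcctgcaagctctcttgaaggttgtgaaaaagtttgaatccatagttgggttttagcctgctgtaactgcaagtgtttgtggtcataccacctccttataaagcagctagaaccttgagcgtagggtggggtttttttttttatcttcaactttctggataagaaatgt
The G+C content was 68.0% for Sct, 76.0% for Hhip and 42.4% for Vegfd, and the median over all 32851 windows was 52.4%. GLI proteins are the transcription factors of the hedgehog pathway, and their 9-base motif GACCACCCA was searched on both strands. It was in 74 windows of the same length (0.225%) and in none of the windows of Sct, Hhip, Vegfd or Ptch1. The core CCACCCA, contained in that motif and chosen after the sequences had been seen, was in 2665 windows (8.11%), including that of Sct at 128 bases before the start. A match describes letters only.

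The values that chose the cells are given as a description. In the cells, Smoc2 stood at 83.2 to 145 CPM (here UMIs of a gene relative to all UMIs of the class, scaled as in bulk) over the 4 libraries, Sct at 76.0 to 128, Hhip at 57.2 to 94.2 and Vegfd at 41.0 to 58.3. In the other stromal cells Smoc2 stood at 11.7 to 28.5 CPM, Sct at 6.64 to 8.47, Hhip at 4.35 to 7.79 and Vegfd at 3.72 to 4.84. Sct with Smoc2 but neither of the others was the most frequent combination in the wild-type non-IR library (21.8% of the cells), the wild-type IR library (21.2%) and the Chek2-/- non-IR library (17.3%). All 4 markers were detected in 8.19% of the cells of the wild-type non-IR library and 8.08% of those of the wild-type IR library, and in 15.9% and 19.5% of those of the Chek2-/- non-IR and IR libraries. Detection of 4 low transcripts depends on depth, and the cells chosen were deep, with a median of 20458 to 23294 UMIs per cell against 11145 to 11955 in the other stromal cells. Stromal cells with exactly 1 marker, just outside the threshold, carried a median of 1 marker UMI, and those with exactly 2, just inside, a median of 3 or 4. On the stromal condition, 327 cells sat between 0.4% and 0.5% and 254 cells with the markers sat just outside, between 0.3% and 0.4%.

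In droplet data free RNA gives UMIs in cells that do not express a gene, so the share of cells with a marker UMI is given beside that in granulosa-like cells, which were not chosen on the markers. The gap to the other stromal cells was fixed by the rule, which thinning does not undo, and no value here tests how far free RNA placed cells inside the rule. After each cell was thinned to 5000 UMIs, Hhip was detected in 21.1% to 28.4% of the Hhip/Smoc2 stromal cells, in 1.58% to 2.56% of the other stromal cells and in 0.096% to 1.48% of granulosa-like cells, which had a median of 17713 to 20144 UMIs before thinning. Smoc2 was detected after thinning in 31.9% to 46.2% of the cells and in 0.576% to 2.77% of granulosa-like cells. Sct reached 24.5% to 32.1% against 1.06% to 1.78%, and Vegfd 18.7% to 20.9% against 1.25% to 2.07%.

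The name "theca-side" could be checked only in part. Position is not measured in dissociated cells, and the defining genes of steroid-producing theca cells were near 0. Cyp17a1, the theca enzyme that makes androgens, stood at 0.161 to 2.35 CPM, Insl3 at 0 to 0.782 CPM, the LH receptor gene Lhcgr at 0.966 to 4.32 CPM and the cholesterol transporter Star at 3.98 to 5.64 CPM in the Hhip/Smoc2 stromal cells. Foxl2, a transcription factor best known from granulosa cells, was detected in 82.7% to 91.7% of these cells and in 85.8% to 89.4% of the other stromal cells, at 168 to 228 and 238 to 299.5 CPM, while granulosa-like cells held 336 to 400 CPM. Amh, which marks granulosa cells of growing follicles, stood at 14.0 to 25.5 CPM in the cells against 273 to 539 CPM in granulosa-like cells. The cells are therefore named only by genes of their rule. Granulosa genes remained above 0 in the cells, and the 7 together summed to 367 to 474 CPM in them, to 499 to 619 CPM in the other stromal cells and to 3286 to 3941 CPM in granulosa-like cells.

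Hhip/Smoc2 stromal cells made up a larger share of the stroma in both Chek2-/- libraries than in both wild-type libraries. The cells numbered 684 of 4854 stromal cells in the wild-type non-IR library, or 14.1% (95% Clopper-Pearson interval 13.1% to 15.1%). They numbered 532 of 4570 in the wild-type IR library, or 11.6% (10.7% to 12.6%). They numbered 851 of 4090 in the Chek2-/- non-IR library, or 20.8% (19.6% to 22.1%), and 971 of 3825 in the Chek2-/- IR library, or 25.4% (24.01% to 26.8%). The intervals of the 4 libraries did not overlap, but these intervals and all others given for single-cell values cover counting error only, and no spread between animals was measured. With every stromal cell thinned to 5000 UMIs, which left out 71 to 109 shallower cells per library, the shares were 4.98%, 3.12%, 8.34% and 9.66% in the same order of libraries. After thinning the intervals of both Chek2-/- libraries overlapped (7.50% to 9.23% for non-IR and 8.74% to 10.65% for IR), and both lay above the wild-type ones. Among stromal cells of 10000 to 30000 UMIs the shares were 16.7%, 13.0%, 22.6% and 26.2%. In granulosa-like cells, Hhip stood at 0.548, 0.850, 3.05 and 4.46 CPM and Smoc2 at 2.04, 3.02, 8.99 and 11.5 CPM in that order. Sct stood at 2.14, 3.12, 7.68 and 11.35 CPM there, and Vegfd at 2.29, 3.07, 4.75 and 5.36 CPM. All 4 markers were thus also higher there in both Chek2-/- libraries. The part of free RNA in the shares was not tested.

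**Figure D1:**
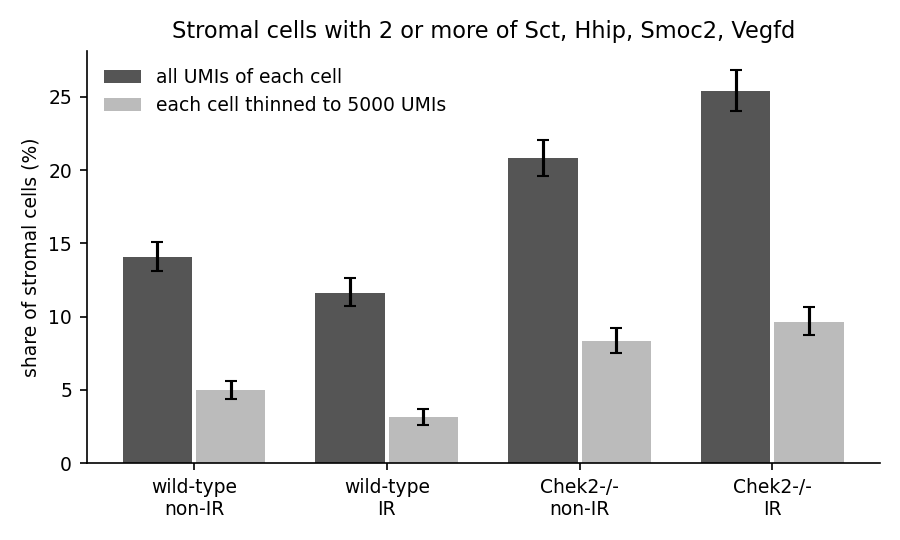
Share of stromal cells (y axis, percent) with 2 or more of Sct, Hhip, Smoc2 and Vegfd in each of the 4 single-cell libraries (x axis), from all UMIs of each cell (dark bars) and after thinning each cell to 5000 UMIs (light bars). Error bars are 95% Clopper-Pearson intervals for counting error. The shares run from 11.6% in the wild-type IR library to 25.4% in the Chek2-/- IR library, and from 3.12% to 9.66% after thinning.

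In whole ovaries, where groups can be tested over libraries, none of the 4 marker genes passed the test. A bulk level cannot tell fewer cells of a type from less RNA per cell. Hhip ran from 5.69 through a median of 8.80 to 12.9 CPM in wild-type non-IR ovaries, from 4.19 through 7.80 to 10.0 in wild-type IR ovaries, from 0.154 through 8.80 to 13.7 in Chek2-/- non-IR ovaries and from 0.152 through 6.11 to 15.6 in Chek2-/- IR ovaries. Smoc2 ran from 49.5 through 68.5 to 77.4 CPM, from 46.4 through 62.6 to 77.9, from 14.6 through 50.6 to 70.9 and from 15.0 through 48.1 to 65.3 in the same order. The lowest Chek2-/- value of Hhip and of Smoc2 in each treatment was the library numbered 6, and the groups overlapped for both genes. Sct ran from 0.384 to 1.79 CPM and Vegfd from 1.54 to 7.62 CPM over all 24 libraries.

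In non-IR ovaries the Chek2-/- group differed from the wild-type group by 0.56 ± 0.33 (log2, SE) for Sct (edgeR adjusted p = 0.352), -0.28 ± 0.58 for Hhip (adjusted p = 0.843), -0.48 ± 0.27 for Smoc2 (adjusted p = 0.311) and 0.17 ± 0.28 for Vegfd (adjusted p = 0.795), with n = 6 per group. Without both libraries numbered 6 these were 0.74, -0.02, -0.30 and 0.36, and the lowest adjusted p was 0.121, for Sct. This comparison called 1430 of 26790 genes (5.34%). After IR the 4 genes moved by -0.34 to 0.02 in wild-type ovaries, where 646 genes were called (2.41%), and by -0.20 to -0.03 in Chek2-/- ovaries, where 3 genes were called (0.0112%). Their responses differed between genotypes by -0.21 to 0.19, where 277 genes were called (1.03%). In all 4 comparisons 0 of the 4 markers were called by edgeR, 0 by DESeq2, 0 by edgeR without the libraries numbered 6, and 0 had an unadjusted edgeR p under 0.05.

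**Figure D2:**
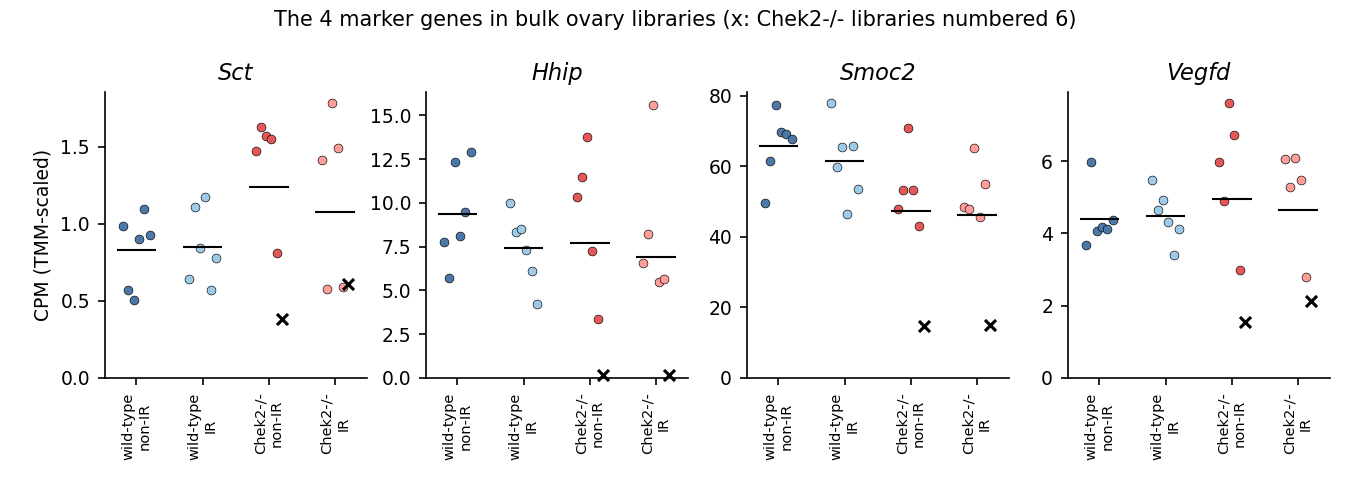
Level of Sct, Hhip, Smoc2 and Vegfd (y axes, CPM scaled by TMM, linear) in each of the 24 bulk ovary libraries by group (x axis). Points are libraries, horizontal lines are group means over 6 libraries, and crosses mark both Chek2-/- libraries numbered 6. The crosses of Hhip lie at 0.154 and 0.152 CPM, under every other library.

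Beyond the genes of the rule, Hhip/Smoc2 stromal cells differed from the other stromal cells of the same library in the genes named next and, as a list, in genes of cell division. Of 12093 genes with at least 400 UMIs, 260 (2.15%) were at least 1.5-fold higher and 325 (2.69%) at least 1.5-fold lower in 4 of 4 libraries, and the median log2 ratio over all genes was -0.05. These counts describe cells chosen on their own readouts and carry no test. They also changed with the cells kept. Among cells of 10000 to 30000 UMIs the counts were 75 and 165, without dividing cells 111 and 187, and without cells holding markers of other cell types, which left 470 of the 3038 cells, 60 and 97.

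Wfdc1 and Fabp5 were among the leading genes that were higher. Wfdc1, a secreted protein with a whey acidic protein domain, stood at 106, 101, 121 and 104.8 CPM in the wild-type non-IR, wild-type IR, Chek2-/- non-IR and Chek2-/- IR libraries against 32.5, 30.9, 34.9 and 31.9 CPM in the other stromal cells. Fabp5, a carrier of fatty acids, stood at 103, 99.2, 123 and 136 CPM against 31.0, 34.0, 29.2 and 38.2. Every library showed the higher level in the Hhip/Smoc2 stromal cells, with log2 ratios of 1.71 to 1.79 for Wfdc1 and 1.54 to 2.07 for Fabp5.

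Among the other higher genes, Plin1, which coats lipid droplets, had log2 ratios of 1.66 to 1.91, Acsbg1, an acyl-CoA synthetase, 1.56 to 2.22, Aldh1a7, an aldehyde dehydrogenase, 2.15 to 2.79, and Hk2, the hexokinase that starts glycolysis, 1.49 to 2.09. Kcns2, a modifying subunit of potassium channels, had the highest ratio that held in 4 libraries, 2.21 to 2.79, at 4.30 to 5.95 CPM. The 6 macrophage genes summed to only 0.998 to 20.1 CPM in these cells against 11890 to 14860 CPM in macrophage-like cells. Dleu7, Serpinb1b, AI427809, Otof, Rtn4rl1 and Steap4 were also higher, with ratios between 1.35 and 2.59. Aldh1a7, Dleu7, Serpinb1b and Otof likewise reached the UMI minimum only through the Hhip/Smoc2 stromal cells.

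Of the leading lower genes, Tgfbi, an adhesive matrix protein induced by TGF-β, stood at 68.3, 67.0, 53.7 and 49.0 CPM in the cells against 246, 269, 248 and 227 CPM in the other stromal cells, with log2 ratios of -2.21 to -1.85. Fmo2, a flavin monooxygenase, stood at 4.39 to 6.91 CPM against 23.7 to 28.5. Dapk2, a kinase linked to cell death, had log2 ratios of -3.15 to -2.21, Lrat, which stores retinol as esters, -3.64 to -1.73, Rgs16, a brake on G protein signalling, -1.84 to -1.59, and the collagen VI gene Col6a5 -2.73 to -1.57. Ccdc42, Sorcs1, Lbhd2 and Aox3 were also among the 10 genes with the strongest difference in this direction.

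**Figure D3:**
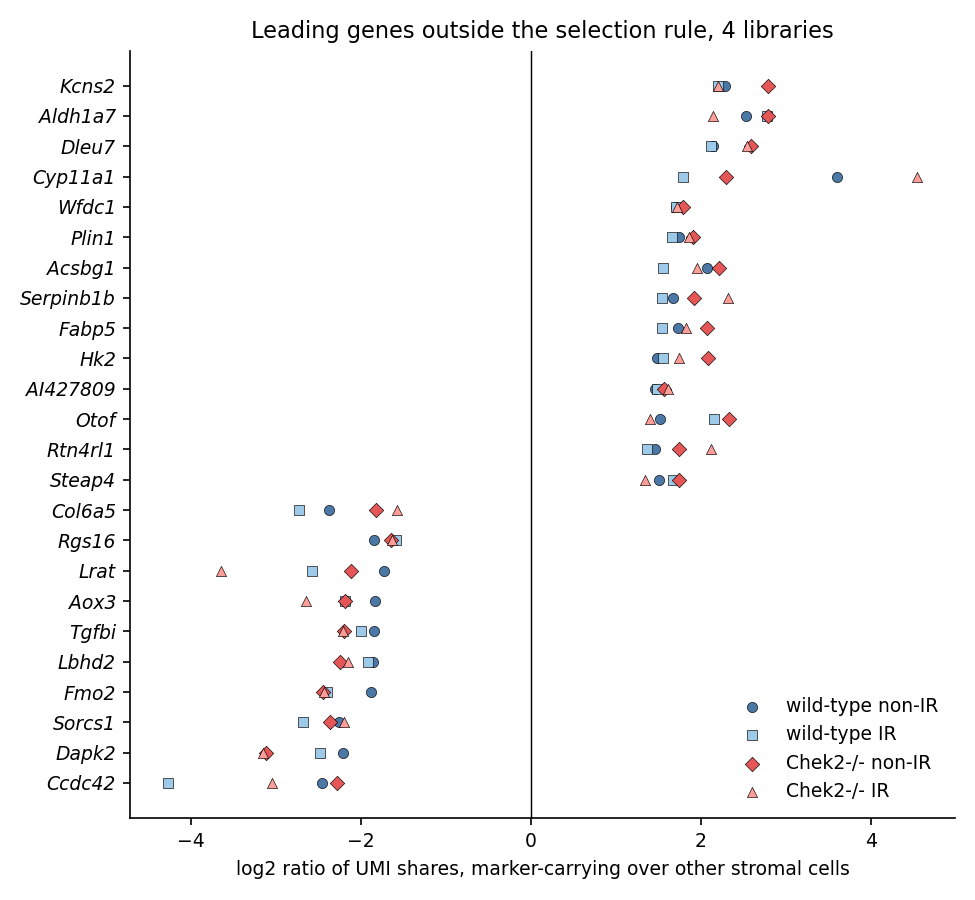
Log2 ratio of the share of UMIs in Hhip/Smoc2 stromal cells over the other stromal cells of the same library (x axis) for 14 leading higher and 10 leading lower genes outside the rule (y axis), 1 symbol per library. All symbols of a gene lie on 1 side of 0, as the choice of the genes required, and Cyp11a1 spreads most among the higher genes, from 1.79 to 4.55.

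Of 13 measured genes of the hedgehog pathway besides Hhip, 0 were called higher and 1 lower, with a median log2 ratio of -0.13. Over all genes 2.15% were called higher and 2.69% lower. Ptch1, the receptor and a target of the pathway, stood at 381, 328, 345 and 316 CPM in the cells against 256, 202, 219 and 213 CPM in the other stromal cells, log2 ratios of 0.57 to 0.70 that straddled the 1.5-fold limit. Gli1, the transcription factor that is also a target, stood at 47.6 to 51.1 CPM against 38.6 to 43.4, with ratios of 0.16 to 0.30, and the co-receptor gene Cdon had ratios of 0.36 to 0.52. Gas1, another co-receptor, was the called gene, with ratios of -1.42 to -0.81. Smo, the signal transducer, had ratios of -0.19 to -0.17, and the ligand gene Dhh stood at 1.64 to 3.26 CPM in the cells.

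In the families of the other markers, little else stood out. Of 7 measured VEGF ligands and receptors, only Vegfc, the nearest relative of Vegfd, was called, and it was lower, with ratios of -1.58 to -1.13, where 2.69% of all genes were called lower. Of 5 measured genes of the SPARC family 0 were called, and Smoc1, the paralogue of Smoc2, had ratios of 0.32 to 0.64. The secretin receptor gene Sctr was under the UMI minimum, as was the VEGFD receptor gene Flt4.

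Of 16 transcription factors of the stroma, 4 were called lower and 0 higher, namely Tcf21 (log2 ratios of -0.87 to -0.69), Wt1 (-1.34 to -0.90), Gata6 (-1.06 to -0.63) and Emx2 (-0.90 to -0.62), with a list median of -0.31. Beside the lists of this paragraph, 2.69% of all genes were called lower and 2.15% higher. Nr2f2, which marks ovarian stroma, stood at 318 to 360 CPM, with ratios of -0.17 to 0.04. Of 20 measured growth factors and receptors, Met, the receptor of hepatocyte growth factor, was higher with ratios of 0.72 to 0.99, and Wnt4, a ligand of ovarian development, and Pdgfrb were lower. Wnt4 stood at 118, 111, 103 and 88.3 CPM against 321, 291, 324 and 297 CPM. Of 25 matrix genes 3 were lower (Col12a1, Ogn and Tnc) and 0 higher, and the list median was -0.21.

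Genes of cell division were higher as a group. Of 17 measured genes 11 were called higher and 0 lower, where 2.15% and 2.69% of all genes were, with a median log2 ratio of 0.76. Among them were Top2a at 393 to 534 CPM against 200 to 283 and Mki67 at 246 to 361 against 137 to 193. The 6 replication genes Mcm2, Mcm3, Mcm5, Mcm6, Pcna and Rrm2 lay at ratios of 0.25 to 0.74 and were not called. At least 3 of Top2a, Mki67, Cdk1, Ccnb1, Cenpf and Birc5 were detected in 44.4% to 55.4% of the Hhip/Smoc2 stromal cells and in 18.2% to 25.4% of the other stromal cells. With each cell thinned to 5000 UMIs these shares were 30.7% to 40.8% and 13.6% to 19.2%. With the markers also read from the thinned cells they were 25.7% to 36.2% and 15.9% to 21.5%, a smaller gap in the same direction in every library.

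Of 7 measured steroidogenic genes 2 were called higher, where 2.15% of all genes were. Scarb1, the receptor that takes up cholesterol from HDL, stood at 61.9, 50.6, 102 and 88.2 CPM in the cells against 31.2, 31.6, 36.3 and 35.7 CPM, with ratios of 0.68 to 1.49. Cyp11a1, which makes pregnenolone from cholesterol, had ratios of 1.79 to 4.55, but its UMIs came from few cells. It was detected in 5, 3, 15 and 25 of the cells, and the 10 cells richest in it held 94.3% to 100% of its UMIs. Cyp11a1 had 124, 13, 88 and 444 UMIs in the cells and 36, 17, 37 and 29 in the other stromal cells of the same libraries. It therefore reached the UMI minimum of this comparison only through the Hhip/Smoc2 stromal cells, where it was higher. Leaving out dividing cells turned its weakest ratio to -0.27. Hsd3b1, the next enzyme of the pathway, had ratios of 0.41 to 0.85 and was not called. Cells holding markers of other cell types made up 82.0% to 86.7% of the Hhip/Smoc2 stromal cells and 69.8% to 74.4% of the other stromal cells. These shares were read without thinning, and the Hhip/Smoc2 stromal cells were the deeper ones. A cell was counted there with at least 2 genes of the granulosa, endothelial, macrophage or surface epithelium list, or at least 3 of the oocyte or erythroid list. The granulosa list holds Foxl2, which was detected in most cells of both classes, so that for these 1 further granulosa gene was enough. The 6 endothelial genes summed to 88.3 to 93.7 against 56.3 to 65.0 CPM, with Cdh5 alone called higher (log2 ratios of 1.02 to 1.12) and 0 lower. The median log2 ratio of the 6 was -0.02, and Cldn5 was below 0 in every library (-2.26 to -0.38). The part of other cell types in the levels given was not tested. Of 12 genes of cholesterol synthesis, Idi1 alone was called, with ratios of 0.63 to 0.74.

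Levels changed in steps with the number of markers a stromal cell carried, which is again a description of cells sorted by their readouts. As means of the 4 libraries over cells with 0, 1, 2, 3 and 4 markers, Wfdc1 went 23.4, 48.9, 84.2, 127 and 151 CPM, and Ptch1 went 199.8, 264, 314, 371 and 378 CPM. Wnt4 went the other way, at 362, 214, 138, 81.3 and 52.6 CPM, as did Tgfbi at 318, 124, 71.0, 51.2 and 38.5 CPM. In the wild-type IR library alone, Ptch1 was lower and Wnt4 higher with 4 than with 3 markers (337 against 375 and 86.3 against 78.4 CPM). Cyp11a1 had another pattern. It stayed at 0.373 to 0.934 CPM up to 3 markers and reached 37.4 CPM in cells with all 4, with 64.6, 7.24, 16.7 and 61.1 CPM in the 4 libraries.

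**Figure D4:**
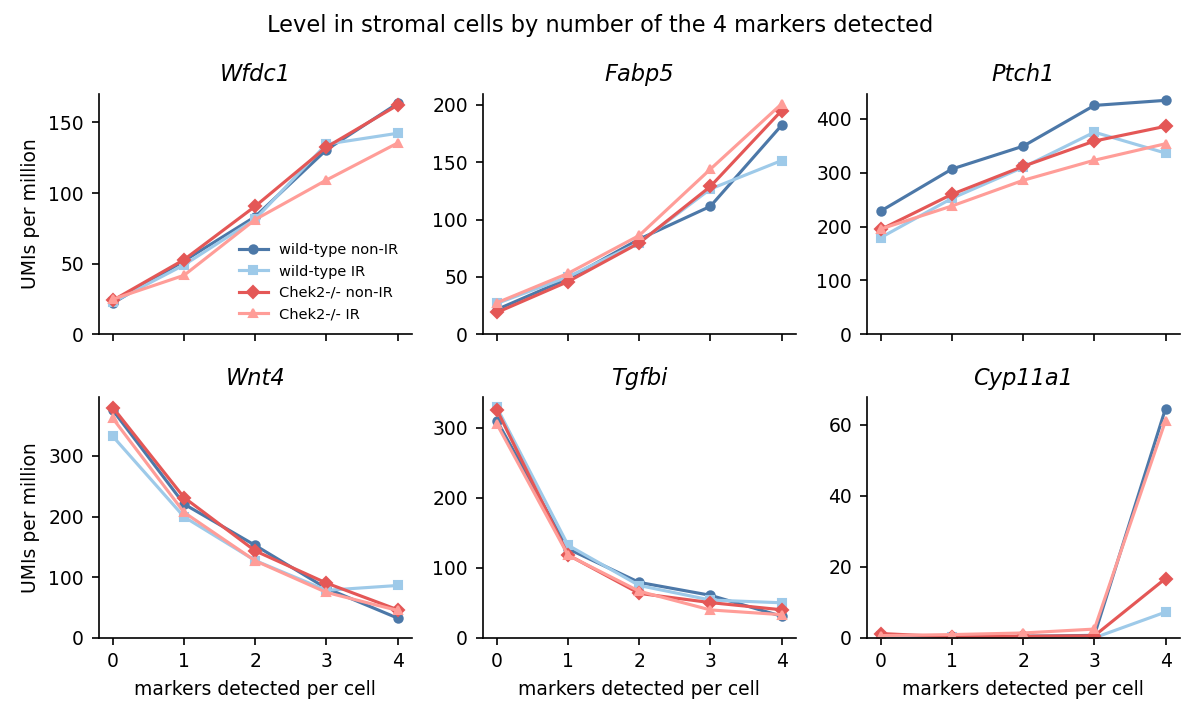
Level of 6 genes (y axes, CPM of UMIs, linear) in stromal cells grouped by how many of Sct, Hhip, Smoc2 and Vegfd were detected in them (x axes), 1 line per library. Wfdc1, Fabp5 and Ptch1 are higher and Wnt4 and Tgfbi lower in cells with more markers, and Cyp11a1 stays low until all 4 are detected. Ptch1 and Wnt4 turn back between 3 and 4 markers in the wild-type IR library.

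Some marker-carrying cells were left out by the stromal conditions, and in 3 of the 4 libraries they held more Cyp11a1 than the cells kept. There were 48, 47, 163 and 222 cells with at least 3 markers that failed a stromal condition, in 44, 43, 151 and 188 of them because the 5 stromal genes made up less than 0.4% of UMIs. These cells held Cyp11a1 at 1.17, 4.72, 128 and 142 CPM and Hsd3b1 at 78.6, 149, 409.6 and 473 CPM. Stromal cells with at least 3 markers held Cyp11a1 at 19.6, 2.55, 7.13 and 29.0 CPM and Hsd3b1 at 92.1, 73.5, 76.0 and 102 CPM. Of the 27, 24, 37 and 47 cells of each library with 5 or more Cyp11a1 UMIs, 2, 5, 23 and 29 had at least 2 of the markers and 1, 1, 3 and 6 were among the Hhip/Smoc2 stromal cells. Scrublet marked 12.5% to 20.3% of the cells left out as doublets against 4.12% to 6.20% of the Hhip/Smoc2 stromal cells, and the part of doublets in these levels was not tested.

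After IR, p53 targets were higher in the Hhip/Smoc2 stromal cells of wild-type ovaries. Cdkn1a, the cell cycle inhibitor p21, went from 3.13 to 66.2 CPM in wild-type cells (log2 ratio 4.39, limits 3.98 to 4.86) and from 2.45 to 7.14 CPM in Chek2-/- cells (1.54, limits 1.09 to 2.02). Dcxr, a xylulose reductase, went from 5.02 to 42.8 CPM (3.09) and from 6.96 to 11.7 CPM (0.75). Ccng1, a cyclin induced by p53, went from 18.4 to 56.9 CPM (1.63) and from 19.1 to 26.7 CPM (0.48). The apoptosis gene Bax went from 110.3 to 232 CPM (1.07) and from 115 to 146 CPM (0.34), and Bbc3, which encodes PUMA, from 4.37 to 14.7 CPM (1.75) and from 4.75 to 6.55 CPM (0.46). In each of these 5 genes the limits of the wild-type ratio lay above those of the Chek2-/- ratio.

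Of 22 measured p53 targets, 15 were at least 1.5-fold higher and 0 lower in the wild-type cells, with a median log2 ratio of 1.01, among 10746 genes of which 111 (1.03%) were that much higher and 101 (0.94%) lower. In the Chek2-/- cells 5 of 22 were higher and 0 lower, with a median of 0.33, among 11397 genes of which 127 (1.11%) were higher and 111 (0.974%) lower. Those 5 were Cdkn1a, Btg2, Trp53inp1, Sesn2 and Dcxr. The genes counted had at least 100 UMIs over both libraries, a minimum that a low gene can reach through the irradiated library alone, as Cdkn1a did in wild-type cells with 48 and 823 UMIs. With at least 50 UMIs required in the non-IR library instead, 13 of 20 targets were higher in wild-type cells, where 0.759% of all genes were, and 5 of 22 in Chek2-/- cells, where 0.789% were. Sesn1 and Xpc did not reach the limit in either genotype, at -0.02 and -0.06 in wild-type and -0.28 and 0.03 in Chek2-/- cells. Mdm2, Fas, Polk and Ercc5 also stayed under it in both genotypes. Mdm2 had ratios of 0.40 in dividing and 0.66 in non-dividing wild-type cells, and it was called higher in the other stromal cells of wild-type ovaries. Btg2, which restrains proliferation, had the larger ratio in Chek2-/- cells, from 261 to 464 CPM (0.83) against 725 to 969 CPM in wild-type cells (0.42). In the other stromal cells 19 of 24 targets were higher in wild-type (median 1.41) and 3 of 22 in Chek2-/- libraries (median 0.38), where 1.47% and 0.979% of all genes were that much higher. With at least 50 UMIs required in the non-IR library, these counts were 17 of 22 (median 1.29) and 3 of 22, where 1.12% and 0.745% of all genes were. Each ratio compares 1 library with 1 other and has no replicate check.

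The response was present in dividing and non-dividing cells. Cdkn1a went from 3.47 to 60.5 CPM in dividing wild-type Hhip/Smoc2 stromal cells, a log2 ratio of 4.10, and from 2.61 to 75.8 CPM in non-dividing ones, a ratio of 4.82. It was detected in 40 of 684 cells before and in 215 of 532 cells after IR. In wild-type stromal cells with 0 to 4 markers Cdkn1a stood at 6.08, 4.84, 3.90, 2.32 and 1.10 CPM without IR and at 96.5, 83.5, 77.7, 45.1 and 44.1 CPM after IR, so that both levels were lower in cells with more markers.

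**Figure D5:**
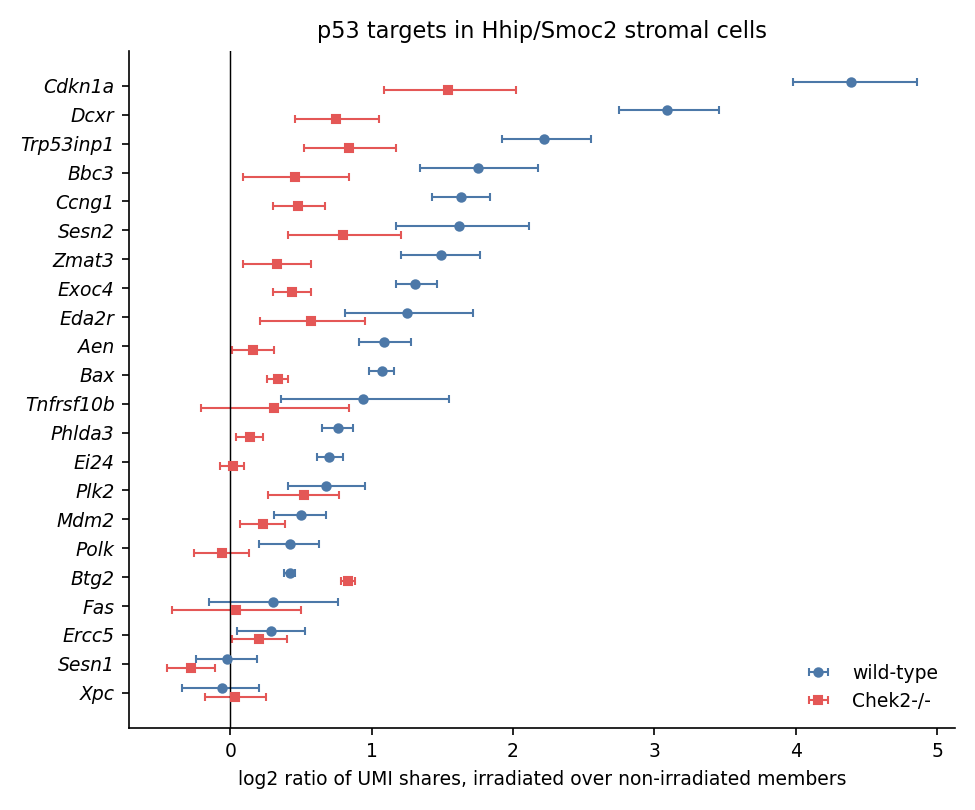
Log2 ratio of the share of UMIs in irradiated over non-irradiated Hhip/Smoc2 stromal cells (x axis) for 22 p53 targets (y axis) in wild-type (circles) and Chek2-/- (squares) libraries. Bars are 95% limits for counting error. The wild-type ratio is the higher of both for 20 targets, and Btg2 and Xpc are the exceptions.

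In bulk ovaries, which hold all cell types, the difference between genotypes was tested. Of 24 p53 targets 18 rose and 0 fell in wild-type ovaries (edgeR adjusted p of at most 0.05, n = 6 per group), where 2.41% of all genes were called, with a median log2 fold change of 1.01. In Chek2-/- ovaries 2 rose, where 0.0112% of all genes were called, with a median of 0.12. Without the libraries numbered 6 the edgeR counts were 20 and 2, and DESeq2 called 20 and 4 with all libraries. In Chek2-/- ovaries 19 of the 24 lay above 0, and 10 had an unadjusted edgeR p under 0.05. Cdkn1a ran from 22.0 through a median of 25.2 to 36.6 CPM in wild-type non-IR ovaries and from 75.5 through 87.2 to 104 CPM after IR, without overlap. In Chek2-/- ovaries it ran from 31.8 through 39.7 to 43.0 CPM and from 37.3 through 48.7 to 59.0 CPM, with overlap. The response of Cdkn1a was lower in Chek2-/- than in wild-type ovaries by a log2 difference of -1.36 ± 0.18 (SE, edgeR adjusted p = 5.36e-05), and 17 of the 24 targets were called in that direction and 0 in the other, where 1.03% of all genes were called. Without the libraries numbered 6 this count was 19. Dcxr and Exoc4 were among the 17, and the list was set with earlier results of these data known.

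The marker levels inside the cells before and after IR are given as a description, since the rule requires the markers in every library. In the wild-type cells Sct went from 97.0 to 76.0 CPM (log2 ratio -0.35), Smoc2 from 110.2 to 83.2 CPM (-0.41), Hhip from 63.7 to 57.2 CPM (-0.16) and Vegfd from 41.0 to 44.4 CPM (0.12). In the Chek2-/- cells the ratios in the same order were -0.22, -0.12, 0.21 and 0.00. None reached 1.5-fold. In the other stromal cells of wild-type ovaries 2 of the 4 did, Smoc2 going from 20.5 to 11.7 CPM (-0.80) and Hhip from 6.62 to 4.35 CPM (-0.60), and in those of Chek2-/- ovaries 0 did, although these cells were chosen for holding at most 1 marker. Ptch1 had ratios of -0.21 and -0.12 and Gli1 of -0.10 and 0.00, and no measured hedgehog gene reached the limit in the wild-type cells, while Dhh alone did in the Chek2-/- cells (-0.99, from 3.26 to 1.64 CPM).

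Several other genes that led the IR comparison came from few cells or belong to other cell types. Hba-a1, Hba-a2, Hbb-bs and Hbb-bt, the haemoglobin genes of red blood cells, had the 4 lowest ratios in the wild-type cells, with Hba-a1 going from 242 to 14.5 CPM, and 92.2% to 95.4% of their UMIs in the higher library lay in 10 cells. Hba-a1 went from 215 to 108 CPM in the other stromal cells. In the Chek2-/- cells Hbb-bt moved the other way, from 45.1 to 197 CPM. Pf4, a platelet and macrophage gene, went from 0.978 to 9.10 CPM in wild-type cells with 9 cells carrying it in each library. The oocyte genes Dppa3, Zp3 and Gdf9 were lower after IR in wild-type cells, with ratios of -1.70, -1.43 and -2.03, and higher in Chek2-/- cells, with 0.70, 0.89 and 0.83, and the other stromal cells moved in the same directions.

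Among genes spread over many cells, Pqlc3 and Dglucy were higher after IR in the wild-type cells, going from 1.499 to 12.2 CPM (log2 ratio 2.99) and from 2.15 to 12.4 CPM (2.51). Both were named for the size of this ratio, and both reached the minimum of 100 UMIs only with the irradiated library. Of the interferon genes, the chemokine gene Cxcl10 went from 1.69 to 7.33 CPM (26 and 91 UMIs) in the wild-type cells and the ubiquitin-like Isg15 from 2.48 to 5.55 CPM (38 and 69 UMIs), so that both reached the minimum of 100 UMIs only with the irradiated library. Of the 15 interferon genes 6 had at least 50 UMIs in the non-IR library, and 1 of these was at least 1.5-fold higher after IR, Irf1 with a log2 ratio of 0.63, where 0.759% of all genes were. In the other stromal cells of the same libraries 3 of 11 were higher by that minimum (Isg15, Irf7 and Cxcl10), where 1.12% of all genes were. In bulk wild-type ovaries 0 of 15 were called by edgeR, where 2.41% of all genes were, with 2 at an unadjusted p under 0.05. DESeq2 called 0, and edgeR without the libraries numbered 6 called 1 higher (Irgm1, log2 fold change 0.70, adjusted p = 0.0158). The median log2 fold change of the 15 was 0.55, with 13 above 0, as were 13043 of all 26790 genes. In Chek2-/- ovaries the median was 0.83, and -0.08 without the libraries numbered 6. By gene set enrichment the paper reports activated interferon alpha and gamma responses in irradiated wild-type ovaries. Markers of other cell types were also higher in the irradiated wild-type cells, the 6 surface epithelium genes summing to 10.7 CPM before and 32.0 CPM after IR, with both measured ones called higher, and the 6 macrophage genes to 2.93 and 20.1 CPM. The macrophage gene C1qa was detected in only 1.61% of the cells before IR (12 UMIs) and 0.940% after it (66 UMIs). The part of other cell types in the interferon levels was not tested. Of 7 interferon genes with at least 50 UMIs in the non-IR library of the Chek2-/- cells 1 was higher (Irf1, 0.59) and 1 lower (Cxcl10, -0.78), where 89 and 133 of all 11280 genes were. The immediate early gene Nr4a2 led the Chek2-/- cells, from 14.9 to 69.3 CPM, and went from 71.8 to 82.9 CPM in wild-type cells, so that it was lowest in the Chek2-/- non-IR library. Bulk non-IR ovaries had the opposite order, with Nr4a2 at 4.65 through a median of 6.32 to 7.92 CPM in wild-type and at 9.18 through 13.15 to 20.1 CPM in Chek2-/- libraries, without overlap (log2 difference 1.08 ± 0.18, SE, n = 6 per group, edgeR adjusted p = 0.0018). Of 15 immediate early and stress genes 6 were called higher there and 0 lower, where 5.34% of all genes were called. The heat shock genes Hspa1a and Hspa1b went from 67.0 to 22.8 and from 30.1 to 10.7 CPM in the Chek2-/- cells. In the other stromal cells of the same libraries they went from 60.1 to 18.01 and from 23.0 to 6.61 CPM.

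Of the 24 leading genes reported, edgeR called 1 in whole ovaries, Fmo2 between the non-IR genotypes, where 5.34% of all genes were called, and DESeq2 called Fabp5 there as well. Fmo2 ran from 1.52 through a median of 2.00 to 2.67 CPM in wild-type and from 2.56 through 3.05 to 11.3 CPM in Chek2-/- non-IR ovaries, a log2 difference of 1.13 ± 0.28 (SE, edgeR adjusted p = 0.0221), and of 0.60 (adjusted p = 0.0247) without the libraries numbered 6, of which the non-IR one gave the highest value. Sorcs1 was called only without that pair (-0.60, adjusted p = 0.0402). Of 15 hedgehog genes 2 fell in Chek2-/- non-IR ovaries and 0 rose by edgeR, Gli2 with a log2 fold change of -0.37 ± 0.09 (adjusted p = 0.0162) and Sufu, which restrains GLI proteins, with -0.39 ± 0.08 (adjusted p = 0.00887), and without that pair the count was 3, with Smo (-0.28, adjusted p = 0.0185). DESeq2 called 4, with Smo and Dhh. Some general stromal genes were also lower in the same comparison, with 3 of 6 fibroblast genes (median -0.28), 2 of 6 pericyte genes (median 0.04, with 3 of 6 above 0), 2 of 10 contractile genes (median -0.28) and 3 of 25 matrix genes (median -0.19) called lower and 0 higher. Without the libraries numbered 6 the matrix count was 8 and the pericyte median -0.21, and the other counts of these lists were as before. Of 10 genes of other stromal subsets 1 was called higher, Fmo2, and 0 lower, with a median of 0.06, and without that pair 1 was higher and 1 lower (Gsn, -0.57), with a median of -0.23. In the same comparison the 6 erythroid genes had a median of 2.32, with 6 at an unadjusted p under 0.05 and 0 called, the 7 granulosa genes a median of -0.34, with 5 at an unadjusted p under 0.05 and 1 called higher (Kitl), and the 6 smooth muscle genes a median of -0.57, with 0 called. The part of all these genes in the hedgehog and steroidogenic values was not tested. Of 11 steroidogenic genes edgeR called 1, Star. Nr5a1 had -0.24 ± 0.07 (edgeR adjusted p = 0.0528), and it was called by DESeq2 and by edgeR without the libraries numbered 6 (-0.26, adjusted p = 0.0376). Star rose with 0.56 ± 0.13 (adjusted p = 0.016), and Cyp11a1 had 1.01 ± 0.48 (adjusted p = 0.229).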

How the data were processed

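Bulk libraries were made from paired ovaries and single-cell libraries from 1 pool of ovaries per condition. For bulk data the authors ran FastQC 0.11.9, Trim Galore 0.6.5 and Salmon 1.3.0 (versions from the submitters' processing notes) and deposited estimated counts per gene, not scaled between libraries, for which the sources used here do not settle the genome build. The single-cell files deposited by the authors hold UMI counts from Cell Ranger and mm10 for the barcodes it kept, and no later filter of the study was applied to them. The members and gene lists were chosen with earlier results of these data known.

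Estimated counts were rounded, 26790 genes with at least 10 counts over 24 libraries were kept, scaled by TMM and tested by the edgeR 4.0.16 quasi-likelihood test (R 4.3.3, 1 coefficient per group) with Benjamini-Hochberg adjustment over all genes. The limit for a call was an adjusted p of 0.05, with no minimum fold. Printed CPM values use TMM-scaled totals. The SE beside a bulk log2 value is that value without its sign over the square root of the F statistic of the edgeR test, fitted to all 24 libraries. Labels do not say how far bulk libraries of a group are independent, so p-values measure the spread between these libraries. Code was tested on simulated counts.

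UMIs were summed over cells of a class per library, 0.5 was added to each sum for log2 ratios, and limits are exact conditional binomial limits at 95% (Python 3.11.15, scipy 1.17.1, scanpy 1.11.5). Genes needed 400 UMIs for members against other stromal cells and 100 UMIs for irradiated against non-irradiated members. A called gene was at least 1.5-fold different, in 4 of 4 libraries for the first. Doublets marked by Scrublet were kept and left out only as an alternative. Comparison classes such as granulosa-like cells had at least 3 markers of their list, fewer than 2 of every other list and a stromal sum under 0.4%. Named genes were the 4 markers, the members of fixed lists, the 15 leading higher and 10 leading lower genes by their weakest ratio over 4 libraries (1 of the higher ones is not reported here), and the 5 with the largest and 5 with the smallest ratio after IR per genotype. Alternatives were another tool, normalization, filters, a replicate block, each library left out in turn, thinning, a depth band and stricter cell rules. Leaving out both Chek2-/- bulk libraries numbered 6 or cells of over 50% ribosomal UMIs, choosing members after thinning, and a minimum of 50 UMIs in the non-IR library alone, were added after seeing the data.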

Additional observations from a re-analysis of the deposited data

Results flagged for a closer look

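Bulk values of the markers and the 24 leading genes were checked for single libraries far from the rest of their group of 6. The rule is meant to mark about 1 in 20 groups by chance, but the groups share libraries. Of 112 groups 9 held a library this far out, and in 4 of the 9 it was a Chek2-/- library numbered 6. For Vegfd it was wild-type non-IR library 2, at 5.98 CPM (the others 3.67 to 4.37). In the Chek2-/- non-IR library numbered 6, Fmo2 stood at 11.3 CPM (the others 2.56 to 3.69), AI427809 at 0.423 CPM (1.09 to 1.44) and Tgfbi at 749.8 CPM (375 to 488). Tgfbi also stood at 726 CPM in the Chek2-/- IR library numbered 6 (416 to 522). Serpinb1b was 0.836 CPM in Chek2-/- IR library 4 (0.417 to 0.539) and Dapk2 was 4.03 CPM in wild-type non-IR library 2. In wild-type IR library 4 Hk2 was 36.1 CPM (54.4 to 64.0) and Aox3 17.8 CPM (6.57 to 9.05).

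The response to IR in bulk ovaries differed between genotypes for 20 of the 310 named genes tested, of which 17 are p53 targets, where 1.03% of all genes were called, each with a smaller log2 response in Chek2-/- ovaries by the edgeR interaction test. The differences were -1.36 for Cdkn1a, -1.47 for Ccng1, -1.31 for Mdm2, -1.44 for Bbc3, -0.48 for Bax, -2.50 for Pmaip1, -1.25 for Eda2r, -1.04 for Trp53inp1, -0.85 for Phlda3 and -1.18 for Sesn2. They were -1.13 for Btg2, -0.78 for Zmat3, -0.45 for Tnfrsf10b, -0.64 for Polk, -0.36 for Ei24, -1.65 for Dcxr, -1.06 for Exoc4, -0.99 for Pqlc3, -2.91 for Dglucy and -1.89 for the growth factor gene Fgf7. The adjusted p was highest for Pqlc3, at 0.0294, and without the libraries numbered 6 Pqlc3 was not called (-0.97, adjusted p = 0.0531), while Perp (-0.46) and Ercc5 (-0.37) were, which gave 21 genes. For Btg2 the bulk difference (-1.13) had the opposite sign to that between the single-cell ratios of the Hhip/Smoc2 stromal cells (0.42 in wild-type and 0.83 in Chek2-/- cells), and the latter was not tested.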

How the results depend on the processing

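No alternative took out free RNA, and each kept the share of Hhip/Smoc2 stromal cells higher in both Chek2-/- than in both wild-type libraries. In the order wild-type non-IR, wild-type IR, Chek2-/- non-IR and Chek2-/- IR it was 4.98%, 3.12%, 8.34% and 9.66% after thinning, 4.57%, 3.39%, 9.80% and 12.5% with at least 3 markers, 8.66%, 7.29%, 13.8% and 14.8% without cells holding markers of other cell types, 10.5%, 7.71%, 12.2% and 15.5% at a stromal sum of at least 0.8%, and 9.94%, 8.11%, 15.2% and 16.3% without dividing cells. Against the other stromal cells, 404 genes were higher and 671 lower with at least 3 markers, 75 and 165 among cells of 10000 to 30000 UMIs, 111 and 187 without dividing cells, 60 and 97 without cells holding other markers, and 108 were higher with cells chosen after thinning, of which 89 were among the 260. The weakest ratio of Cyp11a1 turned to -0.15 without Scrublet doublets, -0.05 among cells of 10000 to 30000 UMIs and -0.27 without dividing cells, and that of Otof to -0.23 without cells holding other markers. After IR, higher and lower genes numbered 210 and 232 in wild-type and 212 and 219 in Chek2-/- cells at 0.5 times the UMI minimum, and 59 and 47, and 74 and 53, at double. With at least 50 UMIs required in the non-IR library alone, chosen after seeing the data, 172 were lower in wild-type cells. Lower genes in Chek2-/- cells numbered 70 without doublets, 63 without dividing cells and 58 among cells of 10000 to 30000 UMIs. Without cells holding other markers, 162 were lower in wild-type cells, and 77 were higher and 56 lower in Chek2-/- cells. Causes were not tested. In bulk, a minimum of 2-fold left 288 genes for IR in wild-type, 1 for IR in Chek2-/-, 211 for genotype and 167 for the difference in response. DESeq2 called 14, 2507 and 458 for the last 3. Leaving out both libraries numbered 6, chosen after seeing the data, gave 1009 for IR in wild-type. Leaving out each library in turn gave 516 to 829, 2 to 5, 573 to 1800 and 221 to 323 genes, the genotype count being 573, 675, 716 and 807 without wild-type non-IR libraries 4, 2 and 3 and Chek2-/- non-IR library 1, and the Chek2-/- count 5 without wild-type IR library 6. It called none of the markers, whose log2 fold changes ran for IR in wild-type from -0.45 to -0.21 (Hhip), -0.09 to 0.13 (Sct), -0.17 to -0.03 (Smoc2) and -0.04 to 0.13 (Vegfd), for IR in Chek2-/- from -0.58 to 0.09, -0.40 to -0.07, -0.22 to 0.14 and -0.28 to 0.06, and for the difference in response from -0.25 to 0.42, -0.43 to -0.09, -0.12 to 0.23 and -0.31 to 0.03. For genotype in non-IR ovaries they ran from -0.52 to -0.02, 0.46 to 0.74, -0.63 to -0.30 and 0.01 to 0.36 in that order.

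No source says that a replicate number marks a shared animal or day, and the pairing was not taken as given, since not every same-numbered pair correlated above 0.1. Pairs across genotypes and treatments ran from -0.101 to 0.418, with 6 of 36 above 0.1. These were 4 of the 6 Chek2-/- pairs of non-IR and IR (0.177, 0.176, 0.127 and, for the libraries numbered 6, 0.418) and 2 of the 6 wild-type ones. With a replicate block 661, 4, 2025 and 281 genes were called, and Sct after IR in wild-type turned to -0.03, with no marker called.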
